A study of Mus musculus with 6 samples.

Results

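The creatine kinase and adenylate buffering genes are 10 mouse genes chosen by name from the deposited count table: the creatine kinases Ckm, Ckmt2, Ckb and Ckmt1, the creatine synthesis enzymes Gatm and Gamt, the adenylate kinase Ak1, and Ampd1, Ampd3 and Adssl1 of the purine nucleotide cycle. They are 10 of 54532 genes in that table, and each name matched 1 gene. Gastrocnemius, a fast-twitch calf muscle, was sequenced as RNA from 3-month-old C57BL/6J mice. The 3 libraries labelled transgenic came from mice with Mck cre, a Cre recombinase named for the muscle creatine kinase gene, and with a transgene named Glut1-Hk2-Pfkfb3. The 3 control libraries came from mice with Mck cre alone, and both groups drank water with 0.2% doxycycline from 4 weeks of age. The labels do not say which promoter carries the transgene, which part of the construct answers to doxycycline, the sex of the mice, or whether a library is 1 animal. P-values therefore measure the spread between these libraries.

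A working muscle fibre uses ATP faster than metabolism can supply it at the start of a contraction. Creatine kinase refills ATP from phosphocreatine, with a cytosolic form beside the myofibrils and a mitochondrial form that loads creatine with phosphate where ATP is made. Adenylate kinase turns a pair of ADP molecules into ATP and AMP, and AMP deaminase removes the AMP as IMP, which the purine nucleotide cycle returns to AMP through adenylosuccinate. In muscle the cytosolic creatine kinase and AMP deaminase 1 are known as abundant enzymes of fast fibres. Creatine itself is made mostly in kidney, pancreas and liver and enters muscle through a transporter.

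The promoters of Ckm and Ckmt2 are shown because Ckm gives its name to the Cre driver that both groups carry, and because Ckmt2, like Ampd1, stood apart in a single library. No window for Ampd1 was used here. Each sequence is the 250 bases before the gene's RefSeq start on GRCm38.p6, read along the gene's own strand, and capitals mark E-boxes, the letters CANNTG that muscle regulatory factors of the MyoD family bind.
Ckm, chr7:19410844-19411093, plus strand: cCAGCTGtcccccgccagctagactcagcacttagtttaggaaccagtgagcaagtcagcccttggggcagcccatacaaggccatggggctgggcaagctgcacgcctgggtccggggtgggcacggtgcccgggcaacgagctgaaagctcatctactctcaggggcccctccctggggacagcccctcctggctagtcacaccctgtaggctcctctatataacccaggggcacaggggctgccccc
Ckmt2, chr13:91876886-91877135, minus strand: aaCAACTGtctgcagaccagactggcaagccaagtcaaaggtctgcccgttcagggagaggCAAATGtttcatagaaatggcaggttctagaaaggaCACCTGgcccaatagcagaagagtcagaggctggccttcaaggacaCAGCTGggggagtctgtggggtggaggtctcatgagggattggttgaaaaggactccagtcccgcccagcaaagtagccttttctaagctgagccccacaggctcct
The Ckm window held 1 E-box and the Ckmt2 window 4. Of the same windows of all RefSeq starts, 66.2% held at least 1 E-box, so the motif is common. The other motifs searched on both strands were TATAAA, in 12.4% of all windows, and AAGGTCA, a half-site of estrogen-related receptors, in 4.08%, and neither was in the Ckm or Ckmt2 window. The Ckm window does hold the letters tatataa near its end, which the exact search for TATAAA did not count. Windows were matched by symbol for 9 of the 10 genes, 15 windows in all, of which 10 held an E-box, 2 TATAAA and 2 AAGGTCA. These are matches of letters and not sites shown to be bound. The construct that drives Cre is not described in the labels, and the muscle enhancer further upstream of Ckm lies outside this window.

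The libraries held 19546456 to 24665024 counts each, and 14973 genes passed the filter on low counts. All 9 fast-fibre genes used as a tissue check had counts, with Acta1, skeletal actin, at 24203 to 30695 CPM (counts scaled to a library of fixed size) in the libraries labelled transgenic and 23097 to 29866 CPM in controls. The 9 summed to 120990 to 156527 CPM in the libraries labelled transgenic and 123781 to 182558 CPM in controls. Their log2 fold changes were negative in 7 and positive in 2, with a median of -0.22. Tnnt3 was lower and Mylpf higher without overlap, where 27.4% of all genes did not overlap. The genes named in the transgene did not show the label: Pfkfb3 averaged 379.5 ± 227 CPM in the libraries labelled transgenic and 1087 ± 503 CPM in controls (SD, n = 3 each), with no overlap, and Slc2a1 overlapped between the groups. Hk2 overlapped too, but transgenic-labelled replicate 1, at 341 CPM, lay above the other 2 (168 and 182 CPM) and above the controls (156 to 187 CPM). Directions below therefore rest on the labels alone. A pair of libraries stood apart. Control replicate 1 carried 492 CPM summed over 9 lymphocyte genes, against 7.56 to 59.2 CPM in the libraries labelled transgenic and 7.84 and 14.7 CPM in the other controls. Transgenic-labelled replicate 1 had 9413 CPM of Myh1, the myosin of fast IIX fibres, against 2811 and 3082 CPM in the other 2 and 3243 to 4090 CPM in controls. In the same library Pvalb, parvalbumin of the fastest fibres, was at 3036 CPM, against 8213 and 6690 CPM in the other 2 and 7115 to 9611 CPM in controls. In bulk muscle, fewer fibres of a type and less RNA per fibre cannot be told apart.

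Levels per length, in the authors' FPKM, put Ckm far ahead. Its mean over the 6 libraries was 3567 FPKM, followed by Ckmt2 (545 FPKM), Adssl1 (468 FPKM), Ak1 (322 FPKM) and Ampd1 (169 FPKM). A second tier held Ampd3 (11.8 FPKM), Gamt (9.33 FPKM), Gatm (2.54 FPKM) and Ckb (2.20 FPKM), and Ckmt1 came last (0.0239 FPKM). The order was not fixed between all neighbours. Ckmt2 exceeded Adssl1 in only 2 of 6 libraries and Ampd3 exceeded Gamt in 3 of 6, while Ckm exceeded Ckmt2, Adssl1 exceeded Ak1, Ak1 exceeded Ampd1, Ampd1 exceeded Ampd3 and Gamt exceeded Gatm in all 6. Gatm exceeded Ckb in 5.

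By edgeR's quasi-likelihood test with a threshold of 0.05 on the adjusted p, 0 of the 9 genes that passed the filter were called. Of all genes tested 1.3% were called and 0.508% were called lower. On simulated counts this test recovered 16 of 50 genes changed 2-fold, so a gene that was not called may still differ. At an unadjusted p under 0.05 there was 1 of 9, Ampd1, against 20.8% of all genes and 10.3% that were lower. Of the other tools DESeq2 called 1 of 9, again Ampd1, against 7.07% of all genes it tested and 3.19% called lower. On the simulated counts 34 of the 150 calls of DESeq2 were false, against 8 of 110 in edgeR. Limma on voom values or on log2 FPKM called 0 of 9. A fit without control replicate 1 and transgenic-labelled replicate 1, which left 2 libraries a group and was chosen after the data were seen, called 5 of 9, all lower. These were Ampd1 (log2 fold change -1.03, edgeR adjusted p = 0.00269), Ampd3 (-0.91, 0.00919), Ckmt2 (-0.57, 0.0187), Ak1 (-0.50, 0.0171) and Adssl1 (-0.56, 0.0298). In that fit 21.8% of all genes passed and 11.4% were called lower. Of the libraries left out, transgenic-labelled replicate 1 held the lowest Ampd1 and the highest Ckmt2 value of all. Control replicate 1 held the lowest control value of each of the 5 genes. The 5 calls thus follow in part from leaving out these values and are no independent support. The CPM values of the groups did not overlap in 2 of 9, Ampd1 and Ak1, both lower in the libraries labelled transgenic, where 27.4% of all genes did not overlap and 13.6% were lower without overlap. Negative log2 fold changes numbered 5 of 9, and the 9 had a median of -0.35. Over all genes 53.4% were negative and the median was -0.03. Ckmt1, the ubiquitous mitochondrial creatine kinase, did not pass the filter. It had 2, 1 and 0 counts in the libraries labelled transgenic and 1, 2 and 2 in controls, all below the floor of 3 counts per library, so no fold is given.

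**Figure D1:**
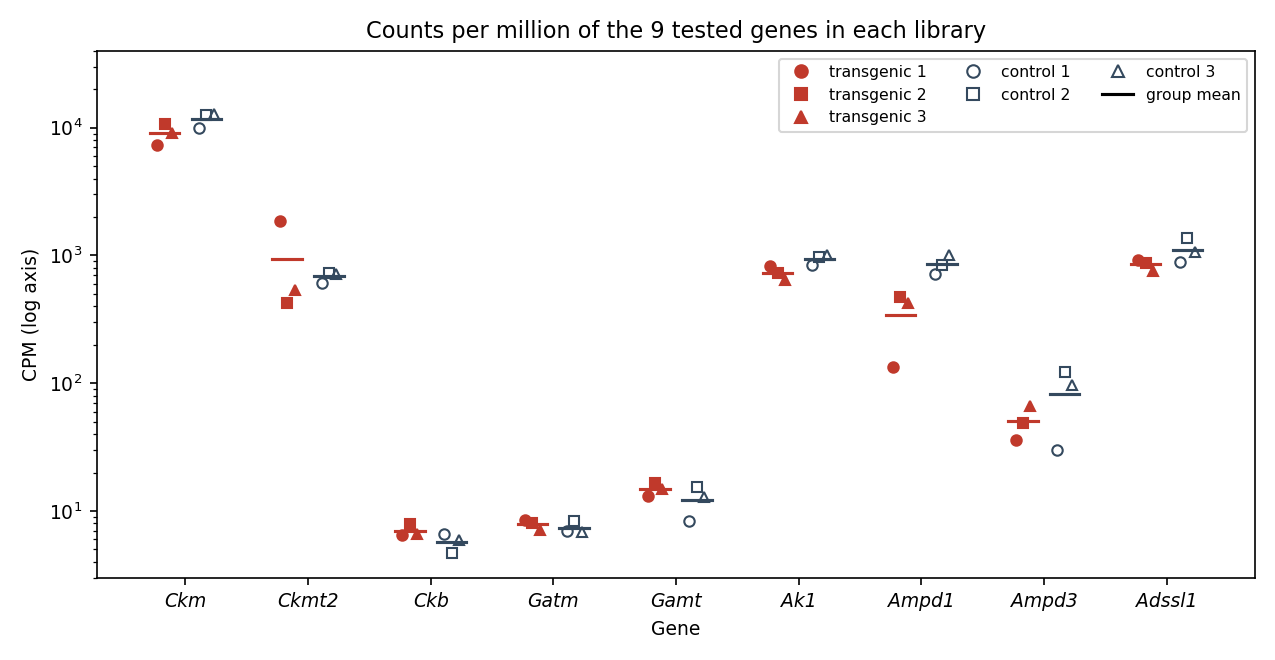
CPM on a log axis for the 9 tested genes, with each library as a point, transgenic-labelled libraries filled and to the left, controls open and to the right, and bars at the group means. Ampd1 and Ak1 lie lower without overlap in the libraries labelled transgenic, and Ckmt2 in transgenic-labelled replicate 1, at 1858 CPM, lies above the other 5 libraries.

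Ckm, the cytosolic creatine kinase of muscle (ENSMUSG00000030399, GRCm38 chromosome 7, 19404776 to 19422841, plus strand), made up 0.757% to 1.13% of all counts in the libraries labelled transgenic and 1.10% to 1.13% in controls. It was at 7317, 10681 and 9090 CPM in transgenic-labelled replicates 1, 2 and 3, against 9979, 12493 and 12877 CPM in control replicates 1, 2 and 3. The groups overlapped, since transgenic-labelled replicate 2 lay above control replicate 1. For Ckm the fit gave a log2 fold change of -0.38 ± 0.41 (SE), with a 95% interval of -1.35 to 0.58 (edgeR adjusted p = 0.627). Set against the summed fast-fibre genes of the same library, Ckm was lower without overlap. That log2 difference was -0.23 (two-sided exact permutation p = 0.1, the smallest allowed). Any groups of this size without overlap give this p. Ampd1 and Gamt did not overlap on this scale either, and the share of all genes that do not was not measured. An antisense gene, A930016O22Rik, shares 15.5% of the exonic bases of Ckm but held at most 0.127% as many counts.

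Ckmt2, the mitochondrial creatine kinase of striated muscle (ENSMUSG00000021622, chromosome 13, 91853387 to 91876885, minus strand), did not move one way. It was at 1858, 426 and 539 CPM in transgenic-labelled replicates 1, 2 and 3, against 608, 728 and 721 CPM in control replicates 1, 2 and 3. Replicate 1 lay above every control and replicates 2 and 3 below every control. The log2 fold change with all libraries was 0.46 ± 0.52 (interval -0.75 to 1.66, edgeR adjusted p = 0.645), and without transgenic-labelled replicate 1 it was -0.49 (adjusted p = 0.262). With all 6 libraries it was 0.13 in limma on voom values, 0.14 in both fits on log2 FPKM and 0.11 with a replicate block, none of which passed. The SD of log2 CPM was 1.14 in the libraries labelled transgenic and 0.15 in controls.

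Among the 8061 tested genes averaging 10 CPM or more, the highest library exceeded the second highest by as much as for Ckmt2, 2.55-fold, in 51. In 5 of these, Ckmt2 included, the highest library was transgenic-labelled replicate 1. The other 4, named after their values were seen, were Tfrc, the transferrin receptor, with a gap of 5.26-fold, Fabp5, a fatty acid binding protein, with 3.74-fold, Btnl9 with 2.92-fold and Cyp4b1 with 2.57-fold. The 7 endothelial marker genes also summed highest in that library, at 664 CPM against 332 and 361 CPM in the other 2 labelled transgenic and 256 to 352 CPM in controls. The 7 slow-fibre genes did not stand apart there, with 1005 CPM against 772 and 1220 CPM in the other 2 and 990 to 1475 CPM in controls. The part of these cell types and of the Myh1 and Pvalb levels in the value of Ckmt2 was not tested.

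**Figure D2:**
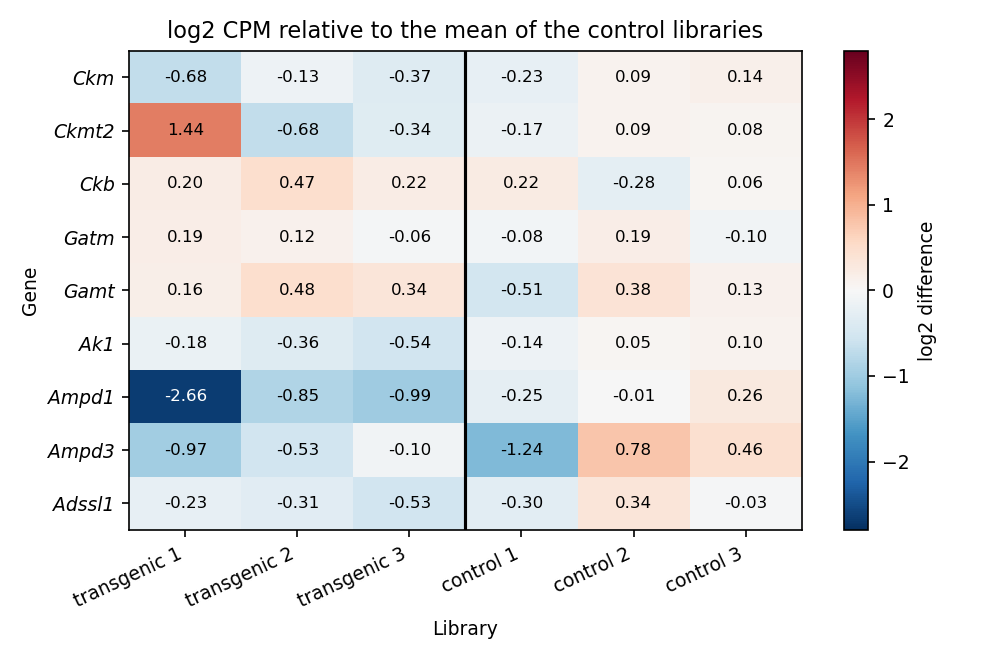
Difference of each library's log2 CPM from the mean log2 CPM of the 3 control libraries, for the 9 tested genes (rows), with transgenic-labelled libraries left of the line and controls right of it. The most distant cells are those of Ampd1 (-2.66) and Ckmt2 (1.44) in transgenic-labelled replicate 1 and of Ampd3 (-1.24) in control replicate 1.

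Within the creatine kinase family, Ckm took 66.7%, 92.7% and 89.5% of the summed FPKM in transgenic-labelled replicates 1, 2 and 3, against 89.3%, 89.7% and 90.1% in control replicates 1, 2 and 3. Ckmt2 took 33.2%, 7.25% and 10.4% in the libraries labelled transgenic, against 10.7%, 10.2% and 9.89% in controls. Controls were thus nearly alike and the libraries labelled transgenic were not. The summed creatine kinase level was 3730 ± 225 FPKM in the libraries labelled transgenic and 4499 ± 601 FPKM in controls (SD, n = 3 each). The log2 ratio of Ckmt2 to Ckm differed by 0.53 (two-sided exact permutation p = 0.8) and turned to -0.26 without transgenic-labelled replicate 1.

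Ckb, the brain-type cytosolic creatine kinase (ENSMUSG00000001270, chromosome 12, 111669361 to 111672338, minus strand), was a trace form here. It had 6.53, 7.90 and 6.61 CPM in the libraries labelled transgenic, against 6.63, 4.68 and 5.95 CPM in controls, and the groups overlapped. Its log2 fold change was 0.28 ± 0.20 (interval -0.18 to 0.74, edgeR adjusted p = 0.448). Relative to Ckm its level did not overlap. The log2 ratio of Ckb to Ckm in FPKM was -10.12, -10.39 and -10.42 in the libraries labelled transgenic, against -10.55, -11.37 and -11.07 in controls, a difference of 0.69. A two-sided exact permutation test gave p = 0.1, which is the lowest that groups of 3 can reach, and 0.2 adjusted over the 4 ratios tested. Smooth muscle and endothelium also express Ckb. The 7 smooth muscle genes summed to 339 to 531 CPM in the libraries labelled transgenic and 269 to 324 CPM in controls, and the part of these cells in the ratio was not tested.

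The creatine synthesis enzymes were low, and their groups overlapped in CPM. Gatm, which makes guanidinoacetate from arginine and glycine (ENSMUSG00000027199, chromosome 2, 122594467 to 122611303), had 8.43, 8.05 and 7.09 CPM in the libraries labelled transgenic, against 6.97, 8.41 and 6.87 CPM in controls. Its log2 fold change of 0.08 ± 0.17 had the narrowest error among the creatine genes (interval -0.31 to 0.48, edgeR adjusted p = 0.812). Gamt, which methylates guanidinoacetate to creatine (ENSMUSG00000020150, chromosome 10, 80258151 to 80261012), had 13.1, 16.4 and 14.9 CPM in the libraries labelled transgenic, against 8.30, 15.3 and 12.9 CPM in controls. The low value was that of control replicate 1, the library with the lymphocyte RNA. In the fit Gamt had a log2 fold change of 0.29 ± 0.23 (interval -0.25 to 0.83, adjusted p = 0.506) and of 0.07 without that library (adjusted p = 0.764). Set against the summed fast-fibre genes of the same library, Gamt was higher without overlap. That log2 difference was 0.49 (two-sided exact permutation p = 0.1, the smallest allowed), with no share of all genes measured on this scale. The part of the lymphocyte RNA in these values was not tested.

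Ak1, the cytosolic adenylate kinase of muscle (ENSMUSG00000026817, chromosome 2, 32621758 to 32635058, plus strand), was lower in CPM in every library labelled transgenic. It had 828, 732 and 645 CPM there, against 848, 971 and 1002 CPM in control replicates 1, 2 and 3. The gap was narrow, since transgenic-labelled replicate 1 lay just under control replicate 1. As a share of library totals alone the groups overlapped. Ak1 held 20049 of 23381569 counts in transgenic-labelled replicate 1, a larger share than the 20540 of 24137800 in control replicate 2. The log2 fold change of Ak1 was -0.35 ± 0.17 (interval -0.75 to 0.04, edgeR adjusted p = 0.279, two-sided exact permutation p = 0.1). Set against the summed fast-fibre genes of the same library the groups overlapped, with a log2 difference of -0.19 (exact permutation p = 0.4).

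The purine nucleotide cycle held the largest difference among the 10 genes. Ampd1, AMP deaminase 1 of muscle (ENSMUSG00000070385, chromosome 3, 103074014 to 103099720, plus strand), was at 134, 470.0 and 427 CPM in transgenic-labelled replicates 1, 2 and 3, against 710, 841 and 1017 CPM in control replicates 1, 2 and 3. Every library labelled transgenic lay well below every control, and replicate 1 lay far below the other 2. The mean was 344 ± 183 CPM in the libraries labelled transgenic and 856 ± 154 CPM in controls (SD, n = 3 each), 2.49-fold lower by the fit. As a log2 fold change this was -1.32 ± 0.43 (interval -2.31 to -0.32, unadjusted p = 0.0163, edgeR adjusted p = 0.156), so it missed the threshold over all genes. Of the 14973 genes tested 281 had a lower log2 fold change.

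The call on Ampd1 moved with the tool, while no fit that left out 1 library made it. In DESeq2 it was -1.31 (adjusted p = 0.0136), and leaving out each library in turn gave -1.61 to -0.92 in edgeR with adjusted p-values of 0.0729 to 0.353. Without transgenic-labelled replicate 1 the difference was -0.92 (adjusted p = 0.132). Relative to the summed fast-fibre genes of the same library the log2 difference was -1.33, again without overlap (two-sided exact permutation p = 0.1, the smallest allowed). The share of all genes without overlap on that scale was not measured. Gm43063, a separately annotated transcript inside an intron of Ampd1 on the same strand, had 44, 42 and 45 counts in the libraries labelled transgenic, against 88, 77 and 139 counts in controls. Its log2 fold change was -1.28 ± 0.29 (edgeR adjusted p = 0.0845), and it did not stand out in transgenic-labelled replicate 1 as Ampd1 did.

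Genes with the pattern most like that of Ampd1 were sought among 7765 protein-coding genes by the root mean square difference of centred log2 CPM over the 6 libraries. The nearest were Gadd45a (0.25 log2 units), Mrln, which encodes the calcium pump inhibitor myoregulin (0.29), Pfkfb3 (0.33) and Ctxn3 (0.34). Gadd45a, a stress and denervation-induced gene, was at 35.8, 88.4 and 76.6 CPM in the libraries labelled transgenic, against 109, 157 and 166 CPM in controls. Of the 8061 genes, 9 had a lowest library at least 3.18-fold below the next lowest, a cut set by the gap of Ampd1 itself. In 2 of these, Pfkfb3 and Ampd1, that library was transgenic-labelled replicate 1. The same library was the lowest in 2035 of the 8061. For Ckm the nearest were Rhbdd3 (0.03), Anapc5 (0.04), Rrp8 (0.05) and Arih2 (0.05).

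Ampd3, the AMP deaminase best known from red cells and from denervated muscle (ENSMUSG00000005686, chromosome 7, 110768206 to 110812405, plus strand), was much less abundant. It had 36.0, 48.9 and 65.8 CPM in transgenic-labelled replicates 1, 2 and 3, against 29.9, 122 and 97.1 CPM in control replicates 1, 2 and 3. The groups overlapped through control replicate 1, the lowest of all 6. The log2 fold change was -0.72 ± 0.47 (interval -1.81 to 0.36, edgeR adjusted p = 0.411). Without control replicate 1 it was -1.12 (adjusted p = 0.0281), in a fit where 13.1% of all genes passed, 6.99% as lower, and Ampd3 was then the only called gene of the 9. Without control replicate 2 it was -0.34 (adjusted p = 0.763). Exons of Rnf141 on the other strand, with those of 2 smaller genes, cover 8.42% of the exonic bases of Ampd3, and the strand setting of the counting is not given. The counts of Rnf141 reached 98.5% of those of Ampd3 in a library, so how many Ampd3 counts lie in shared bases is unknown. Rnf141 had 25.9 to 32.0 CPM in the libraries labelled transgenic and 29.4 to 34.4 CPM in controls.

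Marker genes of the settings in which Ampd3 is usually found were measured beside it. The 7 erythroid genes summed to 76.7, 45.3 and 66.0 CPM in the libraries labelled transgenic, against 83.8, 59.4 and 46.7 CPM in controls. Of the 9 denervation genes 8 were tested and 0 passed the threshold in edgeR. Their log2 fold change was positive in 6 and negative in 2, with a median of 0.49. An unadjusted p under 0.05 in edgeR was reached by 4 positive and both negative ones. Of all genes tested 10.5% were higher and 10.3% lower at that threshold. Chrna1, an acetylcholine receptor subunit, was at 25.3 to 31.6 CPM in the libraries labelled transgenic and 15.3 to 18.6 CPM in controls, while Gadd45a and Myog were the negative ones. The list summed to 137 to 202 CPM in the libraries labelled transgenic and 176 to 246 CPM in controls, a sum in which Gadd45a was the most abundant gene in every library but transgenic-labelled replicate 1. Chrng, the fetal acetylcholine receptor subunit, was at 12 counts over all 6 libraries. Their part in the Ampd3 values was not tested. Ampd3 made up 14.5%, 6.15% and 8.85% of the FPKM of both AMP deaminases in the libraries labelled transgenic, against 2.59%, 8.37% and 5.68% in controls, with overlap. The log2 ratio of Ampd3 to Ampd1 was higher by 0.96 (two-sided exact permutation p = 0.2), by 0.47 without control replicate 1 and by 0.60 without transgenic-labelled replicate 1.

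Adssl1, the muscle adenylosuccinate synthase that starts the return from IMP to AMP (ENSMUSG00000011148, chromosome 12, 112620045 to 112641360, plus strand), had 928, 877 and 756 CPM in the libraries labelled transgenic, against 882, 1374 and 1065 CPM in controls. The groups overlapped through control replicate 1. For Adssl1 the log2 fold change was -0.37 ± 0.21 (interval -0.86 to 0.11, edgeR adjusted p = 0.348). Without control replicate 2, its highest library, it was -0.19 (adjusted p = 0.691). The RNA of Adssl1, whose enzyme uses IMP, relative to that of Ampd1, whose enzyme makes it, differed without overlap. Enzyme amounts were not measured. The log2 ratio of Adssl1 to Ampd1 in FPKM was 3.55, 1.66 and 1.59 in transgenic-labelled replicates 1, 2 and 3, against 1.08, 1.47 and 0.83 in control replicates 1, 2 and 3. The difference was 1.14 (two-sided exact permutation p = 0.1, the smallest allowed, and 0.2 adjusted over the 4 ratios) and 0.50 without transgenic-labelled replicate 1.

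**Figure D3:**
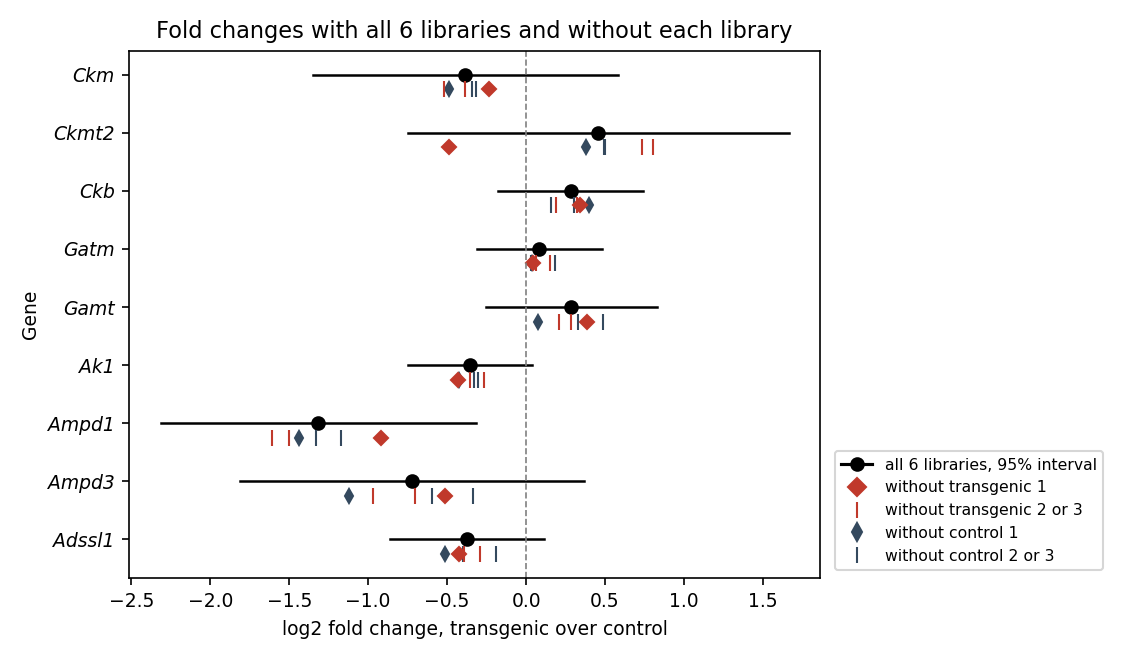
Log2 fold change of the libraries labelled transgenic over controls (black points, with 95% intervals, edgeR, all 6 libraries) and the same value without each library in turn (marks below each point). The interval of Ampd1, -2.31 to -0.32, is the only one that leaves out 0, and Ckmt2 changes sign without transgenic-labelled replicate 1.

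The neighbouring reactions were followed in 2 further lists of genes. The first held 18 other genes of phosphagen and adenylate handling, of which 13 were tested, 0 passed the threshold in edgeR and 2 had an unadjusted p under 0.05, both higher, where 10.5% of all genes were. Slc6a8, the creatine transporter, had 143, 136 and 144 CPM in the libraries labelled transgenic, against 112, 126 and 114 CPM in controls, without overlap (log2 fold change 0.27 ± 0.11, edgeR adjusted p = 0.209). Nme4, a mitochondrial nucleoside diphosphate kinase, averaged 2.97 ± 0.50 CPM in the libraries labelled transgenic and 1.79 ± 0.26 CPM in controls (0.73 ± 0.25, adjusted p = 0.166). Ampd2, the AMP deaminase of most other tissues, stood at 4.63 to 6.45 CPM in the libraries labelled transgenic and 2.41 to 6.67 CPM in controls (0.42 ± 0.38, adjusted p = 0.559). Nme1, a cytosolic nucleoside diphosphate kinase, had a log2 fold change of -0.33 ± 0.28. The median of the list was 0.02, beside -0.03 for all genes.

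The second list held 27 genes of adenine nucleotide loss, salvage and IMP synthesis, of which 26 were tested and 1 rose, Xdh, against 0.788% of all genes that rose. Xdh, the xanthine dehydrogenase that forms uric acid in purine breakdown (ENSMUSG00000024066, chromosome 17, 73883895 to 73950196), had 143, 137 and 148 CPM in the libraries labelled transgenic, against 95.3, 82.5 and 98.0 CPM in controls. Its log2 fold change was 0.63 ± 0.11 (interval 0.37 to 0.90), and the edgeR adjusted p, 0.04995, lay at the edge of the threshold. Over the alternatives the adjusted p ran from 3.75e-04 to 0.204, and 12 of 16 ended the call. Every fit without 1 library other than control replicate 1 was among these. Xdh is known from capillary endothelium. The 7 endothelial genes summed to 664, 332 and 361 CPM in the libraries labelled transgenic, against 352, 256 and 305 CPM in controls. The dependence of Xdh on these cells was not tested.

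The remaining genes named from that list did not pass with all 6 libraries. Slc29a1, a nucleoside carrier, had a log2 fold change of 0.44 ± 0.14 and Impdh1, which leads from IMP to guanine nucleotides, 0.40 ± 0.12 (edgeR adjusted p = 0.138 for both). Nt5c1a, the cytosolic nucleotidase that dephosphorylates AMP in muscle, averaged 4.08 ± 0.46 CPM in the libraries labelled transgenic and 6.62 ± 1.46 CPM in controls (-0.70 ± 0.22, adjusted p = 0.153). Atic, which completes IMP synthesis, averaged 25.9 ± 3.36 CPM in the libraries labelled transgenic and 35.0 ± 4.56 CPM in controls (-0.44 ± 0.15, adjusted p = 0.173). The median of the 26 was -0.01, with 10 positive and 16 negative.

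**Figure D4:**
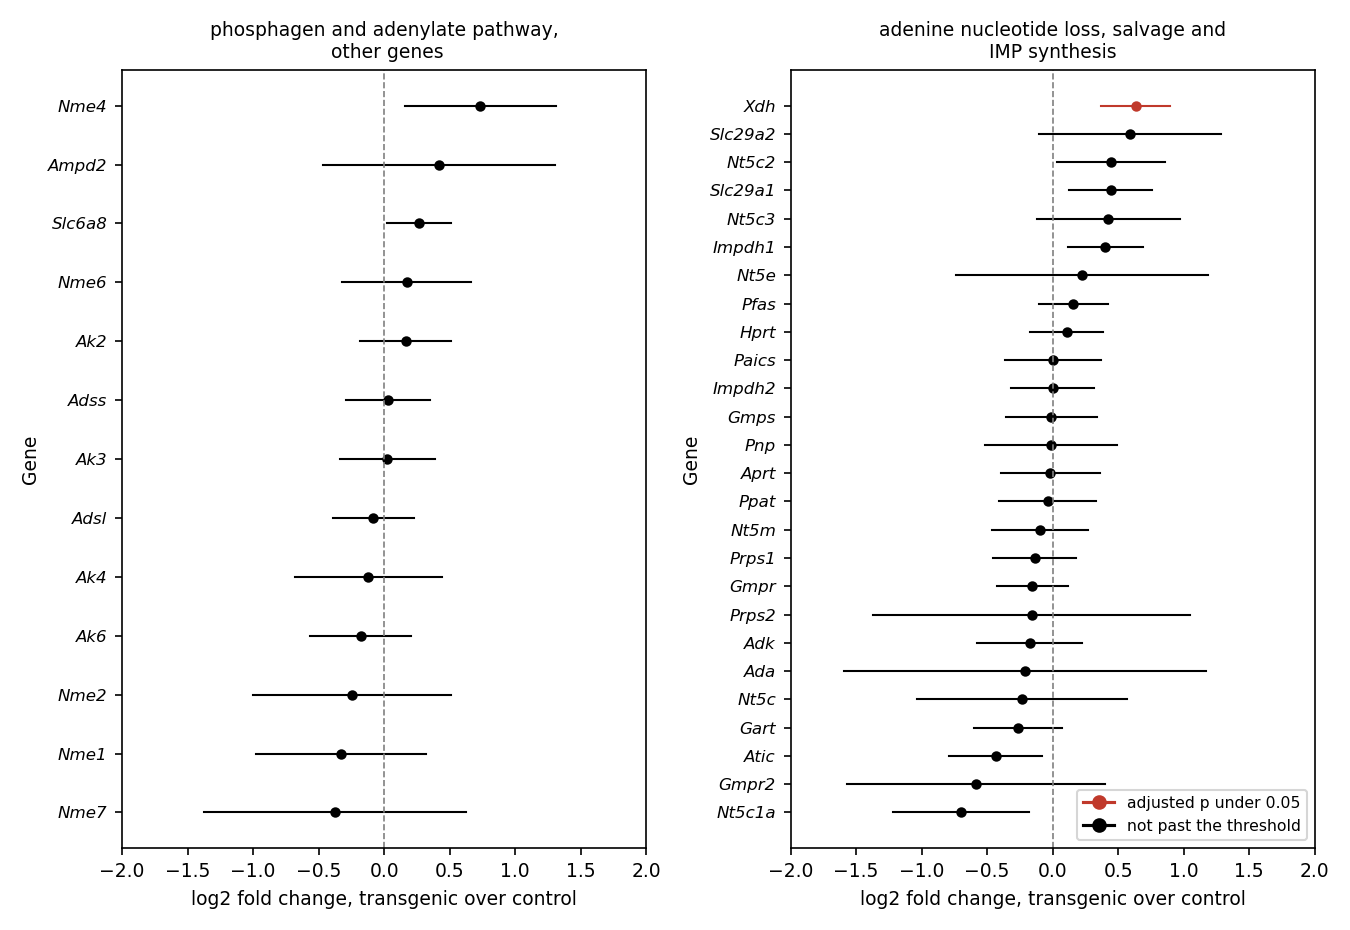
Log2 fold changes of the libraries labelled transgenic over controls with 95% intervals (edgeR, all 6 libraries) for the 13 tested genes of the first list (left) and the 26 of the second (right). Xdh, at 0.63, is the gene past an adjusted p of 0.05.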

How the data were processed

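Per the labels, Trizol RNA of 6 gastrocnemius samples went into NEBNext Ultra libraries. The deposited whole-number counts per Ensembl gene, and the deposited FPKM values, were made by the authors. HISAT2 2.0.5, featureCounts 1.5.0-p3 and GRCm38 are named per the submitters' processing notes, and the strand setting is not given in the sources used here. The deposited gene lengths of all 10 genes equal the exonic lengths in GENCODE M21, from which exon overlaps were taken.

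The count test was that of edgeR 4.0.16 under R 4.3.3 (TMM scaling, filterByExpr, quasi-likelihood test, legacy = FALSE, two-sided, Benjamini-Hochberg over 14973 genes, threshold 0.05). CPM use TMM library sizes, and 3 counts in a library correspond to 0.120 to 0.145 CPM, a floor that covers counting error only. The SE was derived from the F statistic as the absolute log2 fold change over its root. Shares and ratios use FPKM, with exact permutation tests in scipy 1.17.1. Promoter sequences are from RefSeq. The steps were tested on simulated counts. The 10 genes and the lists were chosen with earlier results of these data known. From the lists every gene past the threshold and the 4 with the smallest p were named, and the genes most alike in pattern, 4 each for Ckm and for the gene with the smallest p, came from protein-coding genes that averaged 10 CPM or more and had no Gm or Rik symbol. Alternatives were DESeq2 1.42.0, limma 3.58.1 on voom values, on log2(FPKM + 1) and on log2(FPKM + 0.1), other scalings and filters, a replicate block and fits without each library. Values relative to the fast-fibre genes, the fit without both libraries numbered 1, the genes overlapping the 10, the promoter motifs, the search for genes in which 1 library stood apart, and the naming of Myh1 and Pvalb from the fibre list were added after the data were seen.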

Additional observations from a re-analysis of the deposited data

How the results depend on the processing

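Of the 144 alternative values of the 9 tested genes that have an adjusted p, 136 kept both the direction and the side of the threshold. The direction turned for Ckmt2 without transgenic-labelled replicate 1, within a range of -0.49 to 0.81 over the fits without 1 library, and without both libraries numbered 1 (-0.57). Another 6 values newly passed, Ampd1 in DESeq2, Ampd3 without control replicate 1, and Ak1, Ampd1, Ampd3 and Adssl1 without both libraries numbered 1. The number of these genes past the threshold was therefore 0 with all libraries, 1 in DESeq2, 5 without both libraries numbered 1, and 0 to 1 without each library in turn. Values relative to the fast-fibre genes kept the direction of all 9. Of the 32 alternative values of the 4 ratios 31 kept their direction, and that of Ckmt2 to Ckm turned without transgenic-labelled replicate 1, in a range of -0.26 to 1.07. The cause was not tested.

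The background count of 194 genes (118 higher, 76 lower) was 124 with no filter (40 lower), 983 in DESeq2 (539 and 444), 112 on log2(FPKM + 1) (68 and 44) and 121 on log2(FPKM + 0.1) (77 and 44). A mean of at least 1 CPM left 45 lower. Scaling by library totals gave 205 higher and 54 lower, 79.2% higher in place of 60.8%, and moved the median over all genes to 0.12 on the log2 scale. It left the direction of all 9 genes in place, but moved Ckm to -0.22, Ak1 to -0.20, Adssl1 to -0.21, Gatm to 0.23, Gamt to 0.47 and Ampd3 to -0.50. Without each library in turn the count ran from 0 to 1956 (0 to 910 higher, 0 to 1046 lower). The highest was without control replicate 1, and the count was 0 without control replicate 3, where 2116 genes had an unadjusted p under 0.05. Without both libraries numbered 1, a fit chosen after the data were seen, it was 3269 (1569 higher, 1700 lower). The 2 lists together had 1 gene past the threshold, Xdh, 0 to 5 without each library in turn, and 6 without both libraries numbered 1. That count was 0 with library totals, no filter, a mean of at least 1 CPM, limma on voom values, log2(FPKM + 1), log2(FPKM + 0.1) and the replicate block.

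No pairing by the replicate numbers shared between groups was seen, with same-numbered deviations from the group means correlating at -0.02, -0.17 and 0.16 across genes. The labels state no pairing, and correlations from so few libraries cannot exclude it. With the replicate number as a block 5 genes passed (2 higher, 3 lower), none of them among the 9. The error of Ckm depended on the tool, with an SE of 0.41 in edgeR, 0.19 in DESeq2 (unadjusted p = 0.0495, adjusted p = 0.254) and 0.23 in limma on voom values.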
